A study of Homo sapiens with 6 samples.

Results

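The 41 genes described here encode the machinery that copies DNA, the enzymes that supply its building blocks, the factors that package new chromatin, and 3 of the E2F transcription factors that switch such genes on or off. They were named by a list of 41 symbols, and 106 of the 49293 probe sets on the array (a probe set is several short oligonucleotides whose signals are combined to read one transcript) were annotated to exactly 1 of these symbols. All 41 were measured, among 18155 genes in all, and for counts each gene was read by its brightest probe set, the one with the highest mean over the 6 arrays. Human breast cancer cells of the metastatic line MDA-MB-231 had been infected with a negative control lentivirus (NC, 3 arrays) or with a lentivirus carrying the full-length coding sequence of CTCF (CTCF-OE, 3 arrays). Both groups were stably infected cells of this 1 line grown in medium with fetal bovine serum. Whether they were clones or pools, and the promoter of the vector, are not given in the sources used here. The comparison asks which transcripts differ in cells given extra CTCF, a zinc finger protein known for its role at insulators and at the bases of chromatin loops.

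Replication begins in G1, when the origin recognition complex, CDC6 and CDT1 load the MCM helicase on origins, and it starts in S phase when CDC45 and the GINS complex turn that helicase on. Primase and the polymerases then copy the strands, held to DNA by the PCNA ring that clamp loaders open and close, while FEN1 and LIG1 finish the lagging strand. Most of these genes are transcribed around the G1 to S boundary, when phosphorylation of RB frees the activating E2F proteins, and their transcripts are therefore widely used as a readout of proliferation in breast tumors.

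The letters that E2F proteins are known to bind were found before many of these genes. A RefSeq table (build GRCh38.p14) gave the stretch from 250 bases before to 50 after the start for 34 of the 41 genes (the others were MCM4, MCM5, GINS4, DSCC1, RPA2, E2F8 and FAM111B). At least 1 of TTTCCCGC, TTTGGCGC, TTTGCCGC or TTTCGCGC, on either strand, was present in 19 of the 34 (55.9%), against 5.5% of 14439 array genes with a promoter in the table and 3.3% of all 35116 promoters. The CCAAT box, the letters CCAAT that NF-Y binds, was present in 20 of 34 (58.8%, against 42.4% of array genes), and the Sp1 box GGGCGG in 25 (73.5%, against 65.7%). The cell cycle homology region TTTGAA, known from promoters of mitotic genes, was present in 1 (2.9%, against 15.9%). Core letters of the CTCF motif, AGGGGGCG, were present in 6 (17.6%, against 14.4%). Such matches describe letters in a window and not sites shown to be bound, and since each promoter was searched on both strands, a pair of E2F matches can overlap.

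The stretches below were chosen after the values were seen, MCM6, E2F1 and PCNA to show what the E2F letters look like in a helicase subunit, an E2F gene and the clamp, and RRM2 because it was the gene past the threshold at its brightest probe set. Each is written 5′ to 3′ on the strand of its gene, and capitals mark E2F letters in the first 3 and CCAAT boxes in RRM2. MCM6 is bases 177 to 54 before the start (chr2:135876497-135876620, minus strand), E2F1 bases 58 to 1 (chr20:33686386-33686443, minus strand), PCNA bases 84 to 27 (chr20:5126649-5126706, minus strand) and RRM2 bases 148 to 37 (chr2:10122591-10122702, plus strand).
MCM6: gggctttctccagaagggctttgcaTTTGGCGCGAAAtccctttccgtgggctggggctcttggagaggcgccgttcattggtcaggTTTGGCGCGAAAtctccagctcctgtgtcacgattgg
E2F1: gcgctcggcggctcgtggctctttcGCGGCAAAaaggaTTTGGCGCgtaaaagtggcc
PCNA: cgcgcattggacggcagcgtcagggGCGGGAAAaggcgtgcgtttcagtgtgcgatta
RRM2: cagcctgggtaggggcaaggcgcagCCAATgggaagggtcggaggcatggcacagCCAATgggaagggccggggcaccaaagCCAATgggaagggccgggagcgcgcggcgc
MCM6 carries 4 matches, in 2 stretches where a match on one strand overlaps a match on the other, E2F1 carries 2 and PCNA 1. The RRM2 stretch holds 3 CCAAT boxes on the strand of the gene, and none of the E2F letters searched were in the RRM2 window.

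CTCF itself was not higher where the labels put its overexpression. The probe set for it, 1 on this array, gave intensities of 463, 442 and 489 under NC and 399, 388 and 399 under the CTCF-OE label, so that the groups did not overlap and the labelled overexpression arrays were the lower ones. The log2 fold change was -0.23 (SE 0.045, adjusted p = 0.0575 from limma, exact two-sided permutation p = 0.1, the smallest that 3 arrays against 3 allow). Where this probe set lies relative to the coding sequence in the vector is not given in the sources used here, and all directions below are those of the labels. Array medians lay between 83.4 and 84.5. The 9 control probe sets for RNAs added at hybridization were all lower in the arrays labelled CTCF-OE, by log2 fold changes of -0.08 to -0.03 (median -0.06), those of 18S ribosomal RNA lay between -0.22 and -0.16, those of 28S between -0.38 and -0.03, and those of ACTB and GAPDH between -0.01 and 0.03. The estrogen and progesterone receptor genes ESR1 and PGR, whose expression this line is known to lack, read 52.4 to 61.2 and 7.67 to 9.10 over the 6 arrays, and VIM, a marker of its mesenchymal state, 13746 to 14201. Not all genes that mark luminal breast lines read as dim as ESR1 and PGR. NC means were 3430 in KRT18, 3418 in KRT19, 1453 in XBP1, 1263 in CLDN4, 458 in EPCAM and 346 in GATA3. Those of CLDN3, TFF1, CDH1 and FOXA1 lay below the 55.8 of ESR1. Of 9 genes that mark MDA-MB-231, EGFR was lower (log2 fold change -0.38, adjusted p = 0.0183 from limma) and 0 were higher (1 at an unadjusted p under 0.05), and of 12 genes that mark luminal breast lines, XBP1 was lower (log2 fold change -0.26, adjusted p = 0.0238 from limma) and 0 were higher (0 at an unadjusted p under 0.05). With 1 array left out the EGFR call was kept only without NC replicate 1 (adjusted p = 0.0201) and the XBP1 call in none of the 6 fits. The part of these differences in the values of the replication genes was not tested. Whether the 3 arrays of a group represent separate cultures is not given in the sources used here, and the p-values speak of the spread among these arrays alone, part or all of which may be technical, and the number of arrays limits the precision.

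Across the set, differences were small and mostly positive. Of the 41 genes, 1 was higher in the arrays labelled CTCF-OE at an adjusted p under 0.05 (RRM2; limma on log2(intensity + 1), adjusted over all 18155 genes) and 0 were lower, where 0.727% of all genes were higher and 1.39% lower. At an unadjusted p under 0.05, 7 were higher (ORC1, ORC6, GINS1, PRIM1, PCNA, RRM2 and TK1) and 0 lower, where 7.95% of all genes were higher and 9.28% lower. None passed a fold change of 1.3 together with the adjusted p, which 0.54% of all genes did. The log2 fold change was above 0 in 35 of 41 (85.4%), against 50.1% of all genes and 48.5% of the 8884 genes at least as bright as the dimmest member. Its median was 0.04 over the members and 0.00 over all genes, and it ran from -0.07 in CDT1 to 0.22 in RRM2. These genes were read on the same 6 arrays and are not independent replicates. The added control RNAs differed by a median of -0.06 between the same groups, and the part of that in these small differences was not tested.

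**Figure D1:**
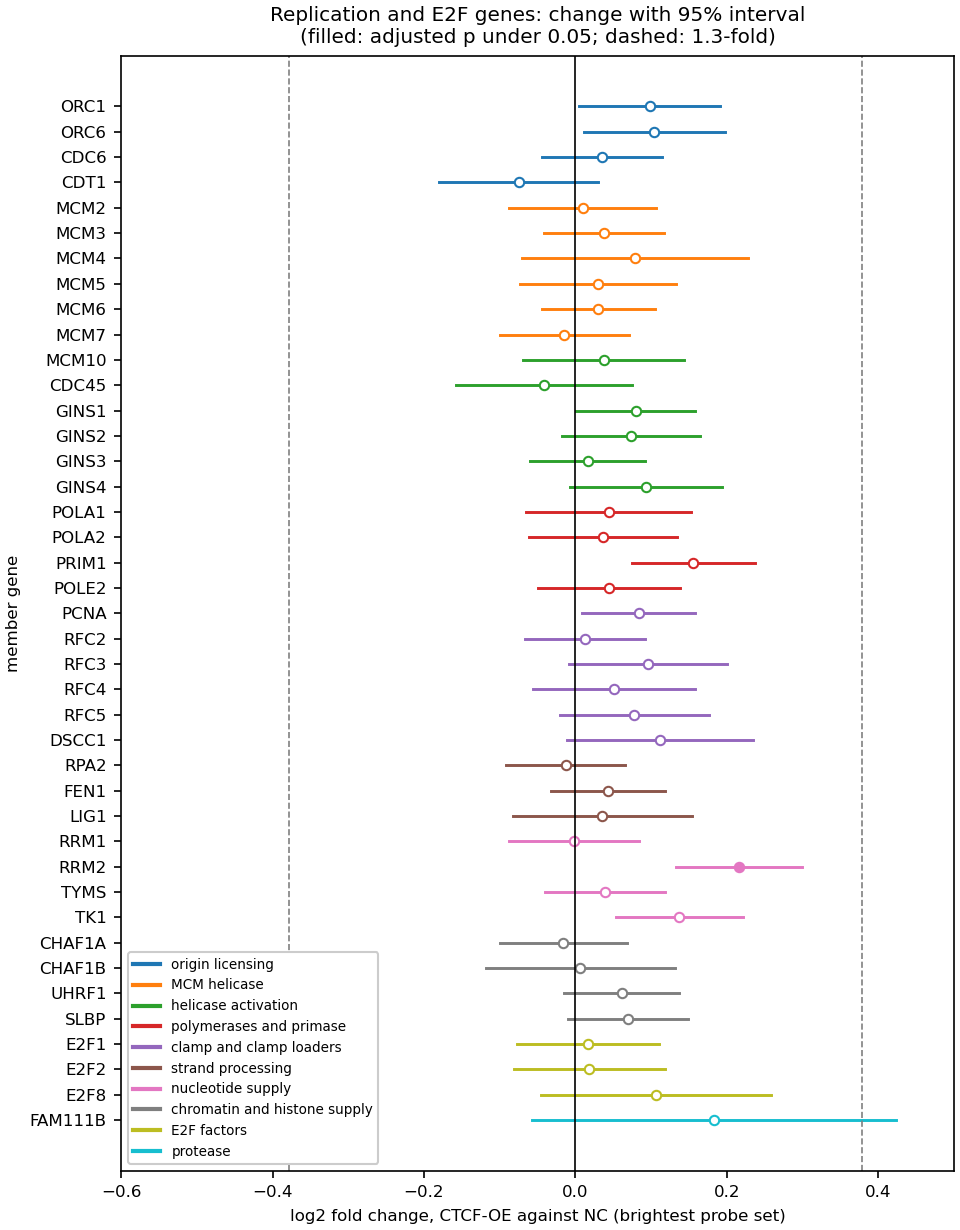
Log2 fold change of each of the 41 genes at its brightest probe set, arrays labelled CTCF-OE against NC arrays (x axis), with the 95% interval from limma as a bar, coloured by role. RRM2, the filled point at 0.22, is the gene past an adjusted p of 0.05, and the interval of FAM111B is the one that crosses a dashed line, which marks 1.3-fold.

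At the brightest probe sets, the 95% interval of the difference lay wholly inside a 1.3-fold change in either direction (0.379 on the log2 scale) for 40 of the 41 genes, the exception being FAM111B, with an interval of -0.06 to 0.42. The same count was not made over all genes, so it is not read as particular to these 41. The median SE was 0.039 over the members and 0.050 over all genes. These intervals do not speak for other probe sets of the same genes, since the intervals of both dimmer GINS1 probe sets (0.25 to 0.53 and 0.20 to 0.48) lay above that of the brightest. The interval lay above 0 for 7 genes and below 0 for none of the 41. In 14 genes all 3 values of the arrays labelled CTCF-OE were above all 3 NC values, as in 11.4% of all genes, and in 0 all 3 were below, as in 13.3% of all genes. The 14 were ORC1, ORC6, MCM6, GINS1, GINS4, PRIM1, PCNA, RFC5, FEN1, RRM2, TK1, UHRF1, SLBP and E2F8.

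Each array can also be read by the median deviation of the 41 genes from their own mean over the 6 arrays. On the log2 scale this was -0.0381, -0.0215 and -0.0064 under NC and 0.0255, 0.0138 and 0.0254 under the CTCF-OE label. The groups did not overlap, NC replicate 3 lay nearest to the other group, and the same median over all genes stayed between -0.0039 and 0.0100 in every array. RNA came from whole cultures, in which a different share of cells of a type (here, cells in S phase) and a different amount of RNA per cell cannot be told apart.

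Nucleotide supply held the 1 gene past the threshold at its brightest probe set. RRM2, the small subunit of ribonucleotide reductase, whose level limits the making of deoxynucleotides in S phase, read 2037, 2040 and 2061 under NC and 2397, 2307 and 2428 under the CTCF-OE label at its brightest probe set. Every value of the second group was above every value of the first, and the NC values lay close together (2046 ± 13.3 against 2377 ± 62.7, SD, n = 3 each). The rise was 16.2% (95% interval 9.68 to 23.0), a log2 fold change of 0.22 (SE 0.035, adjusted p = 0.0340 from limma). The call was lost when any 1 array was left out (adjusted p from 0.0770 to 0.145), with the log2 fold change between 0.20 and 0.24, and also when each gene was read by the mean over its probe sets (log2 fold change 0.15, adjusted p = 0.0564 from limma). In that fit GINS1 (0.27, adjusted p = 0.0088), FAM111B (0.28, adjusted p = 0.0273) and PRIM1 (0.16, adjusted p = 0.0468) passed instead. Leaving out an array also cut calls elsewhere, as over all genes they went from 385 to 121 without NC replicate 1.

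The second RRM2 probe set, whose name ending (_x_at) marks probes that may also bind other transcripts, read 1824, 1765 and 1925 under NC and 1913, 1984 and 1912 under the CTCF-OE label. There the groups overlapped, and the log2 fold change was 0.08 (SE 0.045, adjusted p = 0.455 from limma over probe sets). RRM1, the large subunit of the same enzyme, had a log2 fold change of -0.00 (95% interval -0.09 to 0.08). TK1, the thymidine kinase of the salvage pathway, read 1585, 1676 and 1623 against 1798, 1778 and 1795. These groups did not overlap, with a log2 fold change of 0.14 (SE 0.035, adjusted p = 0.112 from limma), and the other TK1 probe set had 0.15 on that scale. TYMS, thymidylate synthase, had a log2 fold change of 0.04 (95% interval -0.04 to 0.12). TK1, PCNA, MCM6 and E2F1 were chosen for per-array values after these were seen.

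**Figure D2:**
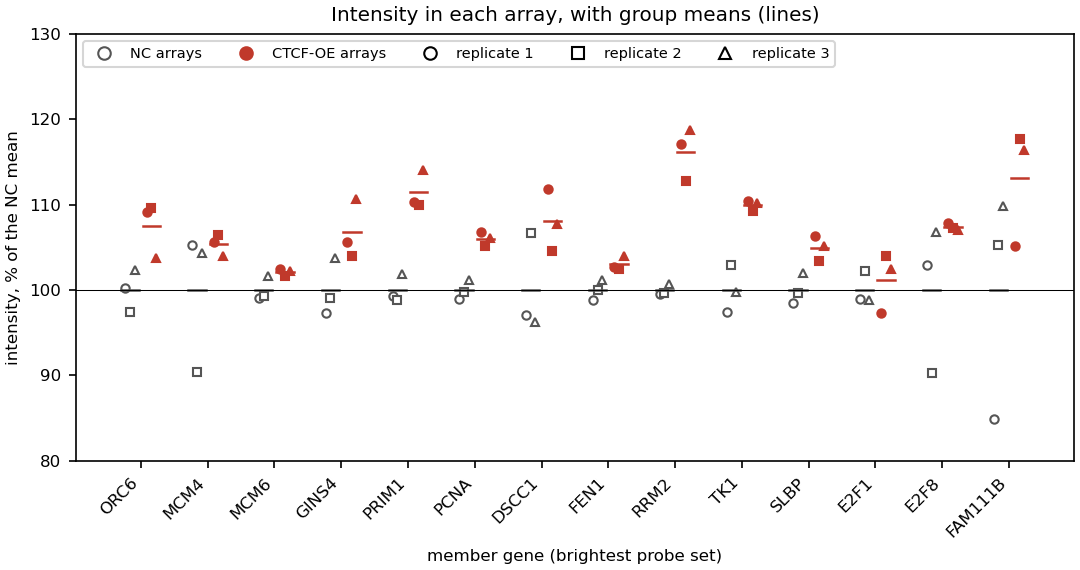
Intensity of the brightest probe set in each array as a percent of the NC mean (y axis) for 14 genes, with NC arrays open, arrays labelled CTCF-OE filled, symbols by replicate number and lines at group means. In RRM2 the 3 filled points sit apart from the 3 open ones at a log2 fold change of 0.22, while in MCM4, E2F1 and FAM111B the groups overlap.

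Origin licensing showed no gene past the threshold. ORC6, the smallest subunit of the origin recognition complex, had the largest difference in this role and read 680, 661 and 694 under NC against 740, 743 and 704 under the CTCF-OE label. The groups did not overlap, but NC replicate 3 and CTCF-OE replicate 3 lay close together, and the log2 fold change was 0.10 (SE 0.039, adjusted p = 0.244 from limma). ORC1, the ATPase subunit whose level cycles in human cells, had a log2 fold change of 0.10 (95% interval 0.01 to 0.19). The loading factor CDC6 had a log2 fold change of 0.04, and CDT1, its partner that geminin restrains, one of -0.07 (95% interval -0.18 to 0.03), the lowest value of the 41. The log2 fold changes of the 3 CDT1 probe sets were -0.07, -0.04 and 0.06.

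The 6 MCM subunits, which form the ring that unwinds DNA, lay near 0 at their brightest probe sets, with a median log2 fold change of 0.03 and 5 of 6 above 0. MCM4 had the largest difference, with 1575, 1353 and 1561 under NC and 1581, 1592 and 1556 under the CTCF-OE label. Those groups overlapped, NC replicate 2 stood below the other 5 values, and the log2 fold change was 0.08 (SE 0.063, adjusted p = 0.584 from limma). Without that array it was 0.01. MCM6 read 949, 951 and 972 against 981, 973 and 979. The nearest values of the groups almost met, and the log2 fold change was 0.03 (SE 0.031). MCM2, MCM3 and MCM5 had log2 fold changes of 0.01, 0.04 and 0.03, and MCM7 one of -0.01, with its other 3 probe sets between -0.04 and -0.01.

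Helicase activation had a median log2 fold change of 0.06 with 5 of 6 genes above 0. GINS4, a subunit of the GINS complex that bridges helicase and polymerase, read 346, 352 and 369 under NC against 375, 370 and 393 under the CTCF-OE label. The groups did not overlap but almost met, and the log2 fold change was 0.09 (SE 0.042, adjusted p = 0.317 from limma). GINS1, GINS2 and GINS3 of the same complex had log2 fold changes of 0.08, 0.07 and 0.02. MCM10, a scaffold of the starting fork, stood at 0.04 on that scale (-0.08 and 0.06 at its other probe sets), and CDC45, which completes the active helicase, at -0.04 (95% interval -0.16 to 0.08).

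The probe sets of GINS1 differed among themselves. Its brightest probe set read 1056, 1062 and 1038 under NC and 1135, 1100 and 1101 under the CTCF-OE label, without overlap (log2 fold change 0.08, adjusted p = 0.321 from limma over probe sets). A dimmer one read 144, 136 and 148 against 191, 174 and 197, and rose by 0.39 on the log2 scale (SE 0.059, adjusted p = 0.0282 from limma). The dimmest read 117, 123 and 114 against 159, 153 and 139, and rose by 0.34 on the log2 scale (SE 0.059, adjusted p = 0.0401 from limma). In both the groups were well apart, and both calls were lost when any 1 array was left out (adjusted p from 0.0509 to 0.152). These probe sets were chosen after their values were seen, and which stretch of the transcript each reads is not given in the sources used here.

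Among the polymerases and primase all 4 genes had a log2 fold change above 0. PRIM1, the catalytic subunit of primase that lays down RNA primers, read 468, 466 and 480 under NC and 520, 518 and 537 under the CTCF-OE label. The groups did not overlap, with a difference of 11.4% (95% interval 5.29 to 17.9) and a log2 fold change of 0.16 (SE 0.034), but the adjusted p was 0.0797 in limma. POLA1 and POLA2, the catalytic and accessory subunits of polymerase alpha, each had a log2 fold change of 0.04, as did POLE2, a subunit of the leading-strand polymerase epsilon.

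The clamp and its loaders were all above 0 as well, 6 of 6 with a median log2 fold change of 0.08. PCNA, the sliding clamp, read 3890, 3922 and 3977 under NC against 4197, 4131 and 4167 under the CTCF-OE label, without overlap (log2 fold change 0.08, SE 0.031, adjusted p = 0.241 from limma). DSCC1, part of the alternative loader that acts in sister chromatid cohesion, read 356, 391 and 353 against 410, 384 and 395. Its groups overlapped through NC replicate 2, and the log2 fold change was 0.11 (SE 0.052, adjusted p = 0.327 from limma), with 0.15 and 0.14 at its other probe sets. The RFC2, RFC3, RFC4 and RFC5 subunits of the main loader had log2 fold changes of 0.01, 0.10, 0.05 and 0.08.

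In strand processing FEN1, the flap endonuclease that trims Okazaki fragments, read 1977, 2001 and 2025 under NC against 2055, 2051 and 2081 under the CTCF-OE label. The groups did not overlap, and the log2 fold change was 0.04 (SE 0.031, adjusted p = 0.544 from limma). LIG1, the ligase that joins the fragments, had a log2 fold change of 0.04 where it read brightest and from -0.09 to 0.06 at the other 5. RPA2, a subunit of the protein that coats single-stranded DNA, had one of -0.01.

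Chromatin and histone supply had a median log2 fold change of 0.03. SLBP, which binds the stem-loop of histone messages in S phase, read 1739, 1760 and 1801 under NC and 1877, 1826 and 1858 under the CTCF-OE label, without overlap (log2 fold change 0.07, SE 0.033, adjusted p = 0.345 from limma). On the same scale its second probe set stood at -0.03. CHAF1A and CHAF1B, subunits of the factor that deposits histones behind the fork, had log2 fold changes of -0.02 and 0.01, and UHRF1, which brings the maintenance DNA methyltransferase to replicated DNA, one of 0.06. The second UHRF1 probe set went the other way at -0.06, with all values under the CTCF-OE label below all NC values, and the dimmest had 0.03.

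None of the 3 E2F genes passed the threshold (0 higher and 0 lower, also at an unadjusted p under 0.05). E2F8, a repressor of the family that acts late in S phase, read 358, 314 and 372 under NC and 376, 374 and 373 under the CTCF-OE label. Those groups were just apart, NC replicate 2 was the low value, and the log2 fold change was 0.11 (SE 0.064, adjusted p = 0.453 from limma), with 0.11 and 0.12 at its other probe sets. Without that array the brightest had 0.04. E2F1, the founding activator of the family, read 336, 347 and 335 against 330, 353 and 347. These overlapped fully (log2 fold change 0.02, 95% interval -0.08 to 0.11), and E2F2, another activator, had one of 0.02.

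FAM111B, a serine protease gene of the nuclear FAM111 family, had the largest standard error of the 41 genes. Its brightest probe set read 214, 265 and 276 under NC against 264, 296 and 293 under the CTCF-OE label, so the groups overlapped and NC replicate 1 stood low (log2 fold change 0.18, SE 0.101, adjusted p = 0.413 from limma). Without that array the log2 fold change was 0.07. A second probe set read 238, 246 and 244 against 266, 284 and 285, without overlap (log2 fold change 0.20, adjusted p = 0.0760 from limma over probe sets). The dimmest read 127, 104 and 130 against 172, 167 and 161, and rose by 0.47 on the log2 scale (SE 0.087, adjusted p = 0.0492 from limma). The groups did not overlap, but of the 6 fits with 1 array left out only that without NC replicate 2 kept the call (adjusted p = 0.0425, against 0.0763 to 0.172 in the others). This probe set was chosen after its values were seen.

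Over all 106 probe sets, most differences were again small and above 0. In the fit over all 49293 probe sets 4 were higher (2 of GINS1 and 1 each of FAM111B and RRM2) and 0 lower, where 0.803% of all probe sets were higher and 1.27% lower, and at an unadjusted p under 0.05 it was 15 higher and 1 lower (8.19% and 8.85% of all probe sets). The log2 fold change was above 0 in 84 and below 0 in 22, with a median of 0.04, and among the 65 probe sets that were not the brightest of their gene 49 were above 0, also with a median of 0.04. Over all probe sets 50.1% were above 0, with a median of 0.00. All 3 values were above the NC values in 34, as in 11.6% of all probe sets, and below them in 3, 1 each of MCM10, RFC3 and UHRF1, as in 12.8%.

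MCM6 resembled GINS1 in how its probe sets spread, as seen once the values were known. Beside a log2 fold change of 0.03 at the brightest, a second read 355, 358 and 356 under NC against 406, 379 and 388 under the CTCF-OE label (log2 fold change 0.13, adjusted p = 0.154 from limma over probe sets). The dimmest read 64.2, 54.7 and 58.6 against 74.7, 71.3 and 73.5 (log2 fold change 0.30, adjusted p = 0.0655 from limma over probe sets). In both the groups did not overlap. All 6 values of the dimmest lay below the array medians of 83.4 to 84.5. No detection call was made, and the part of background in its difference was not tested. Intensities of different probe sets are not on a common scale, so no level is compared between the probe sets of a gene.

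**Figure D3:**
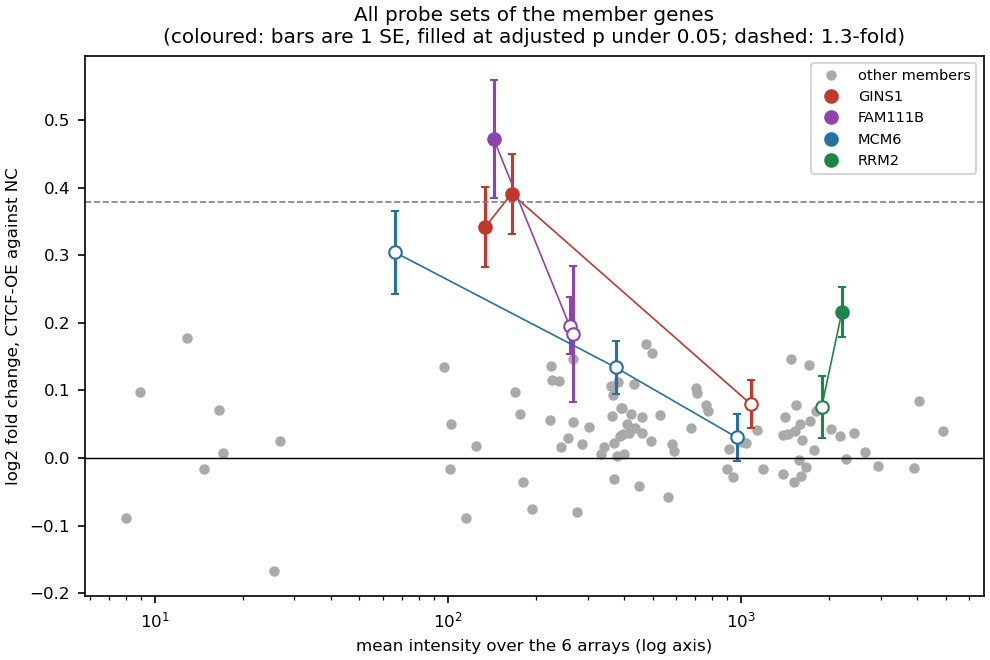
Log2 fold change (y axis) against mean intensity over the 6 arrays (x axis, log scale) for all 106 probe sets of the 41 genes, with the probe sets of GINS1, FAM111B, MCM6 and RRM2 coloured, joined by gene and given bars of 1 SE. The 4 filled points passed an adjusted p of 0.05, and for GINS1 the dimmer pair sits at 0.39 and 0.34 against 0.08 at the brightest.

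The differences can also be read by promoter. The median log2 fold change was 0.04 over the 19 genes with an E2F match (17 above 0), 0.05 over the 15 with a promoter but no match (12 above 0), and 0.09 over the 7 with no promoter in the table used (6 above 0). This is a description with no test.

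Related gene lists put the set in context. The shares of all genes to set beside each list are these. At an adjusted p under 0.05 from limma, 0.727% of all genes were higher and 1.39% lower. At an unadjusted p under 0.05 from limma it was 7.95% and 9.28%. A log2 fold change above 0 was found in 50.1%. Of 43 other replication genes measured, 1 was higher and 0 lower (8 and 0 at an unadjusted p under 0.05), 31 had a log2 fold change above 0 and the median was 0.04. The one past the threshold was TOP2A, the topoisomerase that untangles sister chromatids, which read 4395, 4426 and 4501 under NC against 5220, 5318 and 5283 under the CTCF-OE label (log2 fold change 0.25, SE 0.032, adjusted p = 0.0166 from limma). Among 25 E2F and RB regulators none passed (0 higher and 0 lower, with 4 and 2 at an unadjusted p under 0.05), and the median log2 fold change was 0.05. LIN37, a subunit of the DREAM complex that represses cell cycle genes in quiescence, had the largest difference of that list, a log2 fold change of -0.19 (adjusted p = 0.0874 from limma).

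Of 6 CDK inhibitors 1 was higher and 0 lower (1 and 0 at an unadjusted p under 0.05). It was CDKN2D, which blocks CDK4 and CDK6 (log2 fold change 0.23, adjusted p = 0.0244 from limma). None of 17 other E2F targets passed (3 higher and 0 lower at an unadjusted p under 0.05, median log2 fold change 0.06), and WEE1, the kinase that restrains CDK1, differed most at 0.15 (adjusted p = 0.0886 from limma). Mitotic genes were above 0 in 27 of 27, against 50.1% of all genes, with a median log2 fold change of 0.09. In 20 all 3 values of the arrays labelled CTCF-OE were above all 3 NC values, as in 11.4% of all genes. At an unadjusted p under 0.05, 13 were higher and 0 lower, against 7.95% and 9.28% of all genes. After adjustment 1 was higher, against 0.727% of all genes, the cytokinesis kinesin KIF20A (log2 fold change 0.21, adjusted p = 0.0434 from limma). The calls of CDKN2D and KIF20A were lost when any 1 array was left out, and that of TOP2A was kept only without NC replicate 3 (adjusted p = 0.0471). Read by the mean over its probe sets, TOP2A had a log2 fold change of 0.13 (adjusted p = 0.0605 from limma). By array, the median deviation of the 27 mitotic genes was -0.061, -0.034 and -0.036 under NC and 0.049, 0.044 and 0.044 under the CTCF-OE label. Whether the mitotic and replication genes differed from each other was not tested.

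**Figure D4:**
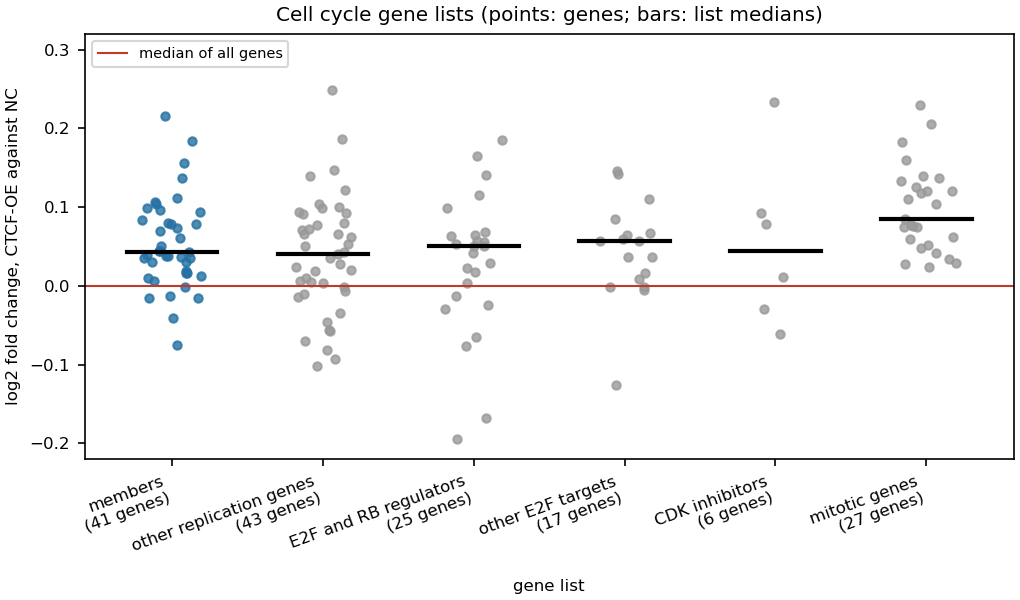
Log2 fold change (y axis) of each gene at its brightest probe set in the 41 replication and E2F genes and in 5 related lists (x axis), with list medians as black bars and the median of all genes as a red line. The medians run from 0.04 in the replication genes to 0.09 in the mitotic genes, of which all 27 lie above 0.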

How the data were processed

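RNA extracted with Trizol from MDA-MB-231 cells had been hybridized by the authors, as biotin-labelled cRNA, to 6 arrays of the PrimeView type, 3 per group. The deposited values are probe set intensities on a linear scale with nearly equal medians, so a scaling between arrays is already in them. Software, background correction and normalization are not given in the sources used here. Such scaling can hide a change shared by most genes. All value columns were used.

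Without 102 control probe sets, log2(intensity + 1) of 49293 probe sets was fitted with limma 3.58.1 in R 4.3.3 (a single group coefficient with variances moderated at 2.97 prior degrees of freedom). Adjustment was by Benjamini-Hochberg across the whole table. The added 1 makes fold changes of dim probe sets slightly smaller. Of these, 45064 had 1 symbol, 1756 several and 2473 none, and genes were named from the first kind only. The brightest probe set stood for each of 18155 genes in a second fit (prior degrees of freedom 2.8). Intensities were given in every array, but no detection call was made. Some member probe sets read near the level of PGR (7.67 to 9.10), among them an RFC4 probe set at 7.28 to 9.05. Precision is set by the spread between arrays.

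The members and lists were chosen with earlier results of these data known, and no test of a list was made. Some genes of the related lists are not analysed here. Full values were given for members past the threshold and for the member of each role with the largest absolute log2 fold change. The others named are stated as chosen later, and of each related list the text names those past the threshold or else the gene with the largest absolute log2 fold change. Of promoters, up to 4 with E2F letters were to be shown among the genes given in full, but none of the 5 such genes with a promoter in the table held them, and the other 5 were not searched. The replicate numbers were not treated as pairs, since no source ties them to a shared batch and deviations of same-numbered arrays correlated at 0.012, 0.0054 and 0.0094. Identical values or near-identical arrays were looked for, and the median absolute log2 difference between arrays of a group was 0.0561 to 0.0849. Alternatives changed 1 choice at a time, except that the methods' t-test at an unadjusted p changed both test and adjustment. They were the added constant, the scaling, the filter on dim probe sets, the test, the fold threshold, the probe set per gene, the replicate block and each array left out. The fits were tested on simulated data. Plots used Python 3.11.15 with matplotlib 3.10.9.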

Additional observations from a re-analysis of the deposited data

How the results depend on the processing

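No direction among the 20 genes and probe sets followed in detail turned under the 17 to 19 alternatives run for each, which leave out the fold threshold (373 values, of which 287 stayed on the same side of the threshold, 71 fell below it and 15 rose above it). The count of member genes that were higher, 1 at first, became 2 with log2(intensity + 16) (RRM2 and PRIM1), 4 with an intensity trend in limma (PCNA, PRIM1, RRM2 and TK1), 3 with the mean over the probe sets of a gene (FAM111B, GINS1 and PRIM1), 10 with the methods' t-test at an unadjusted p under 0.05 (1 after Benjamini-Hochberg adjustment), and 0 with a fold change above 1.3 as well. With each array left out in turn it was 0 to 0. Calls over all 18155 genes, in either direction, moved as well. From 385 they went to 831 with that constant, 1455 with the trend and 3001 with the unadjusted t-test. They were 269 with the adjusted t-test, 98 with the fold threshold and 121 without NC replicate 1. The member counts are therefore not read as particular to these genes. The count of member probe sets that were higher, 4 at first, became 9, 12, 24 and 2 under the same constant, trend, unadjusted t-test and fold threshold, 0 with the methods' t-test after Benjamini-Hochberg adjustment, and 0 to 1 with each array left out (1 without NC replicate 2). Calls over all 49293 probe sets, in either direction, went from 1024 to 2235, 3462, 7921 and 314 under the first 4 of these. They were 597 with the adjusted t-test and 248 without NC replicate 1. With a replicate block, though nothing pairs the arrays, both member counts were 0 and RRM2 had an adjusted p of 0.128, while calls over all genes went from 385 to 55. The adjusted p of RRM2 ran from 9.92e-05 to 0.145 over the alternatives run for it other than the unadjusted t-test. EGFR stood at -0.21 with the mean over its probe sets, against -0.38.

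Member genes above 0 numbered 33 to 40 of 41 over the alternatives. Arrays centred on the added hybridization controls, an alternative chosen after seeing the data, gave 23 genes without overlap in place of 14 and a median of 0.0868 in place of 0.0432, while the median of all genes became 0.04. Under the alternatives, the shares of all genes above 0 or without overlap were not counted. These member counts are therefore not read as particular to the 41 genes. CTCF, at -0.23 and an adjusted p of 0.0575, passed the threshold at -0.22 with log2(intensity + 16), and at -0.23 with quantile normalization, with the dimmest 20% of probe sets left out, with the trend, with array weights, with the mean over probe sets and with the unadjusted t-test. The cause of these changes was not tested. The 3 arrays per group limit what can be called.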
